A study of Mus musculus with 10 samples.

Results

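The subcortical maternal complex is a protein assembly of the mouse egg, and its transcripts were followed here through 3 preparations of that egg. The members were Nlrp5, Nlrp2, Ooep, Tle6, Khdc3, Padi6 and Zbed3, 7 genes in all, and a probe set was taken for a member where the platform annotation gave it that gene and no other. This gave 9 of the 45101 probe sets of the array, for 6 of the 7 genes. Nlrp5, Ooep, Tle6, Khdc3 and Padi6 had 1 probe set each and Zbed3 had 4, while Nlrp2, a NOD-like receptor relative of Nlrp5, had none and is not analysed here. The samples were in vivo matured oocytes of B6D2F1 females, a hybrid mouse, held at the second meiotic metaphase (MII). All groups received equine chorionic gonadotropin and, 48 h later, 5 IU of human chorionic gonadotropin, and all oocytes were stripped of cumulus cells in hyaluronidase (120 IU/ml) 16 h after that. The spindle-chromosome complex (SCC), removed by microsurgery, was hybridised on 3 arrays, the enucleated cytoplast on 4 and the intact MII oocyte on 3. The design asks whether maternal transcripts are enriched at the meiotic spindle. Neither the females' age nor the number of oocytes behind an array is given in the sources used here.

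The complex lies beneath the plasma membrane of the oocyte and is kept away from regions of cell contact in the cleaving embryo. Its genes are classic maternal-effect genes: the oocyte makes and stores the products, and embryos of mothers that lack Nlrp5, Ooep or Tle6 stop in the first cleavages. The proteins are also tied to the cytoplasmic lattices, fibrous stores of the egg cytoplasm, for which PADI6 is required. The arrays measured transcripts, not the proteins or their place under the membrane.

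Padi6 and Zbed3, the latter only by its brightest probe set, stood farthest apart below. They are shown with the 250 bases before their start sites, since the members are transcribed in the growing oocyte. The sequences are those of RefSeq on GRCm38.p6, read 5′ to 3′ on the strand of the gene, and capitals mark E-boxes (CANNTG), the motif bound by helix-loop-helix factors such as FIGLA.
Padi6, chr4:140742644-140742893, minus strand: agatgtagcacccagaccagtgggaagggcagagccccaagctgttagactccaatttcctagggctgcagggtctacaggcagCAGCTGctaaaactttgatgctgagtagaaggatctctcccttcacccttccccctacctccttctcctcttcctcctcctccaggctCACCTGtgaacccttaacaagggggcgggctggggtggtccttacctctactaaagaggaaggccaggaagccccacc
Zbed3, first of 3 listed start sites, chr13:95323355-95323604, plus strand: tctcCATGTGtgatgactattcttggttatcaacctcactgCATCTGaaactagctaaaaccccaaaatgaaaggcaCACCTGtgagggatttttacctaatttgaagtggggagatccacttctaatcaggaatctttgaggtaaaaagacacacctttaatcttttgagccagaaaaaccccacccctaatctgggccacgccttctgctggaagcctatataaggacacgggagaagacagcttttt
The Padi6 window held 2 E-boxes and the Zbed3 window 3, while the windows of the 2 other Zbed3 start sites held 1 each. Of all windows, 31.8% held 2 or more. All 7 members matched the promoter table, with 11 start sites, and 10 of the 11 windows held an E-box, against 66.2% of the 32851 windows of the same length. The element bound by the homeobox factor NOBOX (TAATTA or TAATTG, on either strand) was in 2 of the 11, those of Ooep and of the second Nlrp5 start site, against 11.3% of all windows. These matches describe letters only, and the E-box is short enough to occur in most windows. The E-box reads the same on both strands and does not overlap the NOBOX element in these windows.

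Intensities are given on the linear scale of the deposited table, and differences as log2. The background level of an array was the 95th percentile of 60 probe sets for genes of other tissues, and lay between 63.9 and 99.5. The 9 oocyte markers with a usable probe set were above it on every array but 1, where 8 were. Of 17 cumulus and granulosa markers, 0 to 2 were above it per array. Fshr, Amh and Has2 were below it on all arrays, while Kitl read 113 to 193 in the SCC and 63.4 to 133 in the other groups. Foxl2 read 64.4 to 79.6 in the SCC and 74.8 to 90.0 in the other groups, and was above background on some arrays of each group. The summed level of the 17 was 517 to 628 in the SCC, 525 to 535 in the cytoplast and 496 to 559 in the MII oocyte. Bright probe sets (3944 with a mean log2 above 8) had a median SCC minus cytoplast difference of 0.28, against 0.01 over all 23737 tested. The 3′ over 5′ difference of the Actb control was smaller on every SCC array (3.27 to 3.65) than on any cytoplast array (3.66 to 5.29). That of the Gapdh control overlapped (2.32 to 3.23 and 2.57 to 3.92). Whether marker levels, this brightness shift or RNA quality have a part in the results below was not tested. Fewer cells of a type and less RNA per cell cannot be told apart in these bulk samples.

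For most probe sets of the complex the 95% interval of the SCC minus cytoplast difference reached both sides of 0. Of the 9 probe sets, 1 passed the test (limma, adjusted p under 0.05 over all 23737 probe sets): a Zbed3 probe set that was higher in the SCC. In this comparison 6.74% of all tested probe sets passed as higher and 0.274% as lower. Padi6 went the other way, with every SCC array below every cytoplast array, and did not pass. By arrays alone, 2 of the 9 probe sets had all SCC arrays above all cytoplast arrays and 1 had them all below, where 13.9% and 5.89% of all probe sets did. Of the 2 higher ones, Zbed3 1437097_at was below background on all arrays. Against the MII oocyte 0 of 9 passed by limma, where 0.0421% of all probe sets passed as higher and 0% as lower. An unadjusted p under 0.05 by limma was reached by 3 of the 9, and by at least 2241 of all 23737. These 3 were Padi6, Zbed3 1453848_s_at and Zbed3 1437097_at, the last below background. The arrays were without overlap for 2 probe sets higher in the SCC and 1 lower, where the whole array had 8.71% and 5.34%. The 2 higher ones were the same as against the cytoplast. Between cytoplast and MII oocyte 0 of 9 passed by limma and 0 had an unadjusted p under 0.05. No tested probe set of the array passed there in either direction (0% and 0%). None of the 9 was without overlap, against 1.89% higher and 3.83% lower over the array.

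**Figure D1:**
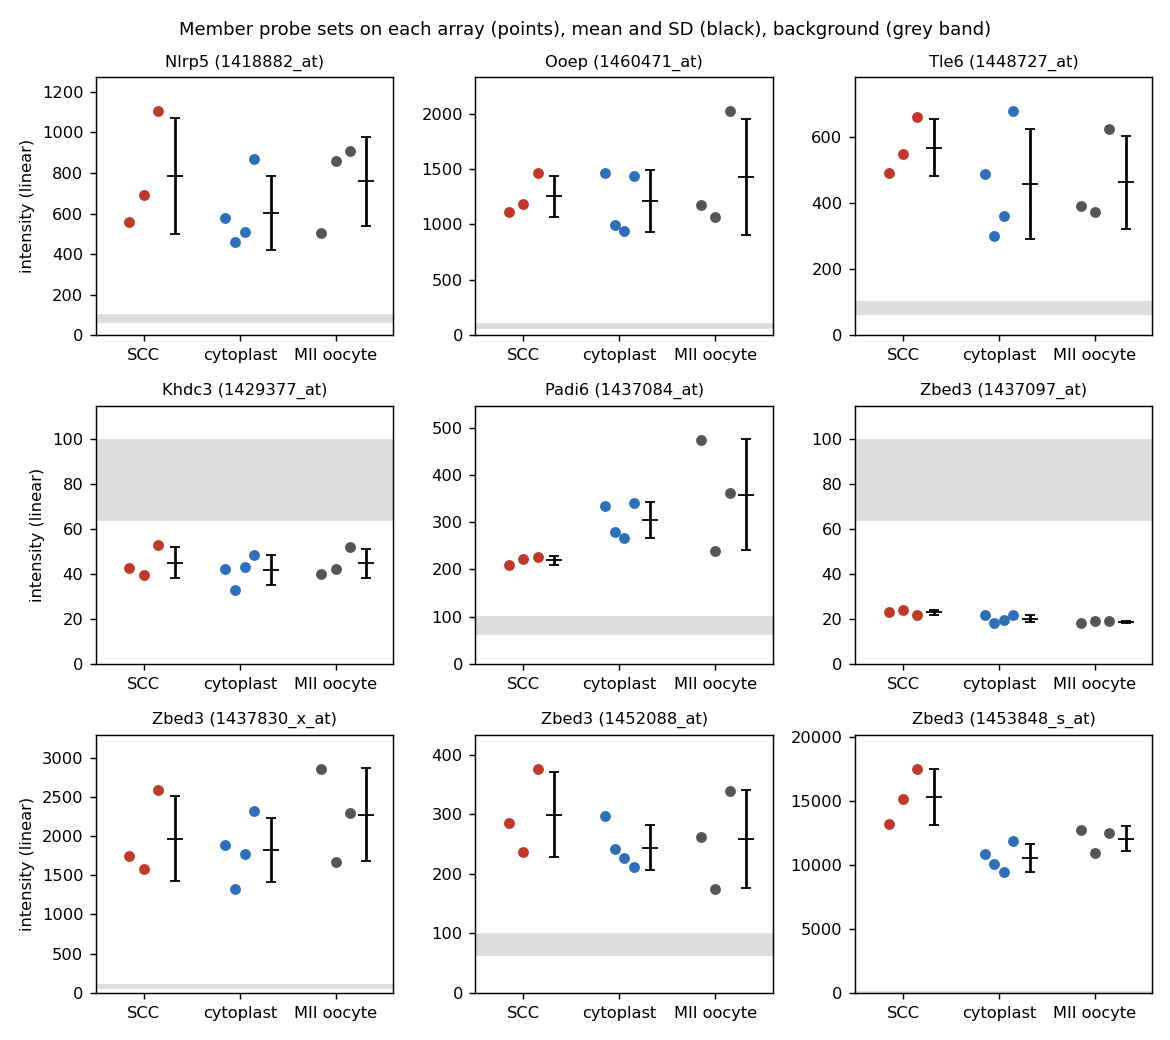
Linear intensity (vertical axis, from 0) of the 9 member probe sets on each array (points) in the SCC (3), cytoplast (4) and MII oocyte (3), with the mean and SD in black and the range of the background level as a grey band. The Khdc3 probe set and 1 of the 4 Zbed3 probe sets lie below the band, and only Padi6 has all SCC points below all cytoplast and MII oocyte points.

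Nlrp5, Ooep, Tle6 and Khdc3 form the core of the complex. Nlrp5 encodes MATER, a NOD-like receptor family protein on which the other core proteins depend for their place in the oocyte. Its probe set read 558, 690 and 1107 in the SCC, 577, 462, 508 and 870 in the cytoplast, and 505, 861 and 909 in the MII oocyte. The groups overlapped throughout, and the spread within each was wide: the means were 785 ± 287 (SD, n = 3), 604 ± 183 (n = 4) and 758 ± 220 (n = 3). The SCC minus cytoplast difference was 0.36 (SE 0.28, 95% interval -0.26 to 0.98, adjusted p = 0.548 by limma). That interval leaves room for a change of either sign.

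Ooep encodes FLOPED, a small KH-domain protein that binds MATER and TLE6 directly. It read 1109, 1184 and 1466 in the SCC, 1467, 996, 944 and 1442 in the cytoplast, and 1179, 1070 and 2027 in the MII oocyte. MII oocyte 4 was the highest array and the rest of the groups overlapped. The SCC mean of 1253 ± 188 (SD, n = 3) and the cytoplast mean of 1212 ± 281 (n = 4) were the closest of any member probe set above background, with a log2 difference of 0.07 (SE 0.24, interval -0.45 to 0.58, adjusted p = 0.921 by limma). After cyclic loess or quantile scaling of the arrays the sign turned, to -0.21 and -0.22.

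Tle6, a transcriptional corepressor relative that works in the egg as part of the complex, read 491, 548 and 660 in the SCC. It read 488, 300, 360 and 679 in the cytoplast, and 390, 373 and 624 in the MII oocyte. The brightest and the dimmest array were both cytoplasts. The difference of SCC and cytoplast was 0.37 (SE 0.27, interval -0.21 to 0.95, adjusted p = 0.501 by limma), on means of 566 ± 86.3 (SD, n = 3) and 457 ± 167 (n = 4).

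Khdc3 encodes FILIA, a KH-domain protein that guards chromosome stability in early embryos. Its probe set read 39.6 to 52.7 in the SCC, 32.9 to 48.6 in the cytoplast and 39.9 to 51.8 in the MII oocyte. All of these were below background, though above the array medians (15.6 to 16.6). Its level was therefore not told apart from background, and no difference is given. Limma gave adjusted p = 0.773 for SCC against cytoplast.

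Padi6 encodes an egg member of the peptidylarginine deiminase family. It read 209, 221 and 227 in the SCC, 334, 279, 266 and 340 in the cytoplast, and 475, 240 and 361 in the MII oocyte. All 3 SCC arrays were below all 7 others and lay close together, while the MII oocyte arrays spread over most of the range. The means were 219 ± 8.99 (SD, n = 3), 305 ± 37.5 (n = 4) and 358 ± 117 (n = 3). The log2 difference from the cytoplast was -0.47 (SE 0.20, interval -0.90 to -0.04), and did not pass over the whole array (limma, adjusted p = 0.202). From the MII oocyte it was -0.66 (SE 0.21, interval -1.12 to -0.20, adjusted p = 0.221 by limma). These comparisons share the SCC arrays. Among the members above background, Padi6 had the only negative difference from the cytoplast. With quantile scaling its difference passed (-0.73, adjusted p = 0.0487 by limma), with cyclic loess it was -0.69 (0.055), and with only the SCC and cytoplast arrays fitted it was -0.47 (0.0476). Under the other alternatives it did not pass, with adjusted p by limma up to 0.382 (without cytoplast 1), and it was 0.255 with the replicate block and 0.235 with trend and robust moderation. The difference from the MII oocyte moved with single arrays: it was -0.92 without MII oocyte 3 (adjusted p = 0.0246 by limma) and -0.43 without MII oocyte 2 (0.675).

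Zbed3 encodes a zinc-finger protein that binds Axin in Wnt signalling and takes part in positioning the spindle of the zygote as a member of the complex. Its 4 probe sets did not give 1 answer. Their brightness cannot be set against each other, since probes differ in how well they bind. Whether any of these probes also match other transcripts was not tested. Probe set 1453848_s_at was by far the brightest and read 13223, 15213 and 17566 in the SCC, 10855, 10061, 9431 and 11892 in the cytoplast, and 12758, 10971 and 12499 in the MII oocyte. All SCC arrays were above all others. The means were 15334 ± 2174 (SD, n = 3), 10560 ± 1062 (n = 4) and 12076 ± 966 (n = 3). The SCC was 1.45-fold higher than the cytoplast (log2 0.53, SE 0.13, interval 0.25 to 0.82, adjusted p = 0.033 by limma). Against the MII oocyte the log2 difference was 0.34 (SE 0.14, interval 0.03 to 0.65, adjusted p = 0.36 by limma), which did not pass.

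The call for this probe set was lost with other scalings and with several arrays left out. Its log2 difference was 0.19 after cyclic loess (adjusted p = 0.368 by limma) and 0.39 after quantile scaling (0.0705). Without cytoplast 1, 2 or 3 the adjusted p was 0.0823, 0.0933 and 0.0772, and without SCC 2 or SCC 3 it was 0.124 and 0.164. The direction stayed the same in all of these. The call was kept with no filter (adjusted p = 0.0363 by limma), the 75th percentile filter (0.03) and only the 2 groups fitted (0.0381). With trend and robust moderation the adjusted p was 0.0446 by limma. The probe set lies near the top of the scale, where the highest reading of an array was 17504 to 32535, and the 87 probe sets with a mean log2 above 13 had a median SCC minus cytoplast difference of 0.16.

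Probe set 1437830_x_at of Zbed3 read 1741, 1574 and 2585 in the SCC, 1882, 1323, 1773 and 2323 in the cytoplast, and 2860, 1671 and 2290 in the MII oocyte. All groups overlapped. Its SCC minus cytoplast difference was 0.10 (SE 0.24, interval -0.41 to 0.62, adjusted p = 0.872 by limma), and the sign turned under cyclic loess and quantile scaling. Probe set 1452088_at read 285, 237 and 377 in the SCC, 297, 242, 226 and 212 in the cytoplast, and 262, 174 and 339 in the MII oocyte. Here too the groups overlapped, with a difference of 0.28 (SE 0.22, interval -0.21 to 0.77, adjusted p = 0.558 by limma). Probe set 1437097_at read 18.2 to 24.1 on all arrays and was below background, so it gives no level. The mean of all 4, which takes in 1437097_at at equal weight, was higher in the SCC by 0.28, with adjusted p = 0.322 by limma.

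**Figure D2:**
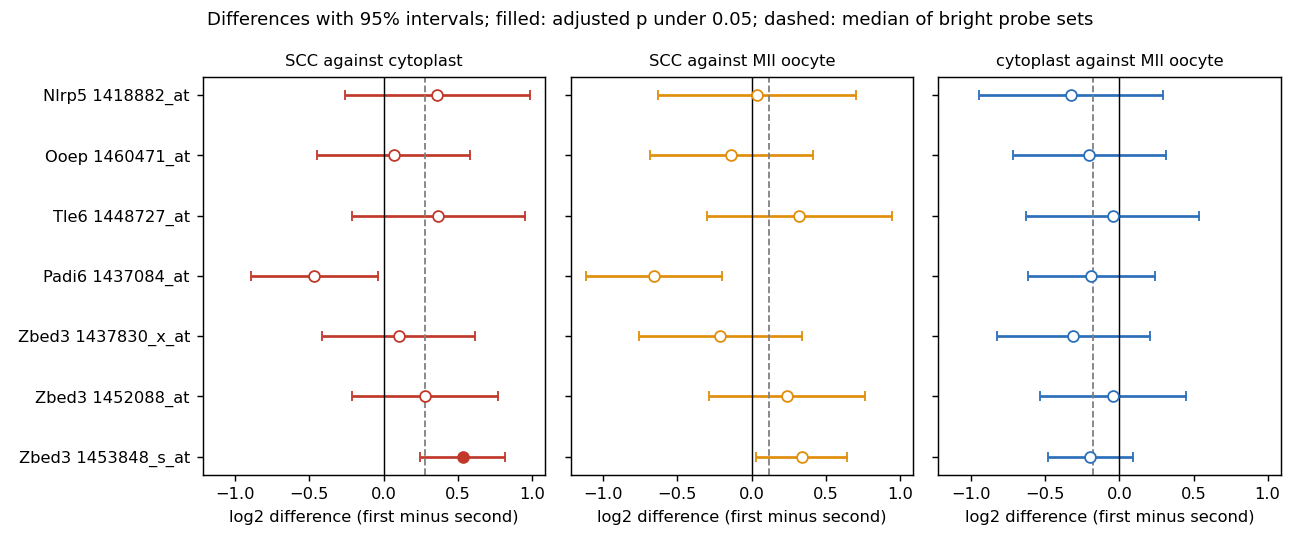
Log2 differences (horizontal axis, first group minus second) with 95% intervals for the 7 member probe sets above background, in the 3 comparisons. The dashed line is the median of bright probe sets and filled points passed an adjusted p under 0.05: only the brightest Zbed3 probe set does, and Padi6 has its whole interval below 0 in both comparisons with the SCC.

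Among the 7 probe sets above background, 6 differences from the cytoplast were positive and 1 negative, with a median of 0.28. The median of bright probe sets in the same comparison was also 0.28, so the members' shift was near that of other bright probe sets. Against the MII oocyte 4 were positive and 3 negative (median 0.04, against 0.12 for bright probe sets). In the cytoplast against the MII oocyte all 7 were negative (median -0.20, against -0.18), with adjusted p of 0.926 to 0.987 by limma. The MII oocyte, which holds both parts, lay between SCC and cytoplast in its mean for Nlrp5, Tle6 and 2 of the Zbed3 probe sets above background, but above both for Ooep, Padi6 and Zbed3 1437830_x_at. Neighbours in these orders overlapped, except the SCC from the others for Padi6 and Zbed3 1453848_s_at.

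Set against the median of bright probe sets, most members moved little between scalings. Padi6 stood below that median by -0.75 as deposited, -0.70 after cyclic loess and -0.73 after quantile scaling. The relative value of Zbed3 1453848_s_at was 0.25, 0.17 and 0.39. Nlrp5 (0.07 to 0.09) and Tle6 (0.08 to 0.11) stayed close to the median, and Ooep stood at -0.22 under each scaling. The brightest Zbed3 probe set was the member that moved most.

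**Figure D3:**
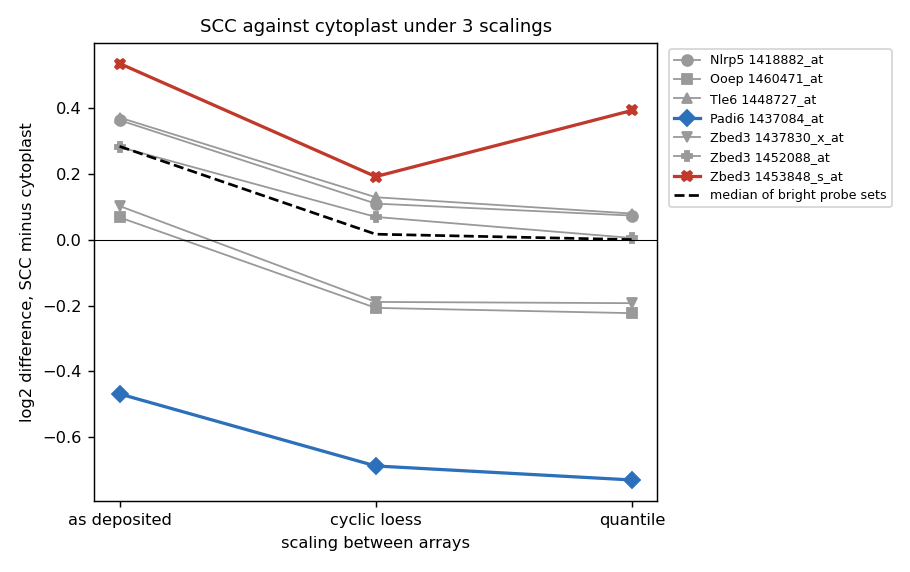
Log2 difference of SCC minus cytoplast (vertical axis) for the 7 member probe sets above background under 3 scalings between arrays, with the median of bright probe sets dashed. Padi6 (blue) is below 0 throughout, from -0.47 to -0.73, and the brightest Zbed3 probe set (red) is above 0 throughout, from 0.19 to 0.53.

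Padi6 and Zbed3 were also set against the mean of Nlrp5, Ooep and Tle6 on the same array, the other members above background. Padi6 stood at -0.80 to -0.31 (log2, centred) in the SCC, -0.11 to 0.48 in the cytoplast and -0.18 to 0.997 in the MII oocyte. Its SCC arrays did not overlap the others, as already in its own readings, so this is not separate evidence. Zbed3, by its brightest probe set, stood at 0.05 to 0.26 in the SCC, -0.40 to 0.23 in the cytoplast and -0.47 to 0.32 in the MII oocyte, and its groups overlapped. Against the mean of all 5 other members, which takes in Khdc3 and Padi6, the Zbed3 SCC arrays (0.25 to 0.38) did not overlap the cytoplast (-0.34 to 0.11) or the MII oocyte (-0.39 to 0.09). The separation of Zbed3 relative to the complex thus depended on the members it was set against. Tle6, set against Nlrp5 and Ooep, stood at 0.0094 to 0.28 in the SCC, -0.22 to 0.24 in the cytoplast and -0.41 to -0.03 in the MII oocyte. Its SCC arrays overlapped the cytoplast and not the MII oocyte.

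Most members other than Padi6 correlated positively from array to array. Over the 10 arrays the Pearson correlation of log2 values was 0.64 for Nlrp5 with Ooep, 0.75 for Nlrp5 with Tle6 and 0.78 for Ooep with Tle6. Zbed3, by its brightest probe set, correlated at 0.68 with Tle6, 0.58 with Nlrp5 and 0.40 with Ooep. Khdc3 correlated at 0.45 to 0.81 with these members, but its probe set was below background. Padi6 correlated with the other members between -0.27 and 0.37. The median over the 15 pairs was 0.58, and the 6 pairs of Zbed3 probe sets had a median of 0.45. The points share arrays and their brightness, so these are descriptions.

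The mean level of the 6 genes (Khdc3 included), each centred on its own mean, was highest on MII oocyte 4 (0.36), SCC 3 (0.31) and cytoplast 4 (0.24), 1 array of each group. These 3 were among the 4 arrays with the brightest hybridisation controls, which are spiked in after the RNA is made into labelled cRNA. The 4 brighter arrays had a mean control level of 11.1 to 11.3 (log2) and a member level of -0.02 to 0.36, while the 6 dimmer ones had 9.87 to 10.7 and -0.38 to 0.01. No label names a batch, and the split was made here from the controls. Cytoplast 1, counted as dimmer at 10.7, lay almost midway between the nearest arrays (10.3 and 11.1), so its side is unclear. Within the dimmer arrays the SCC minus cytoplast difference was 0.49 for Zbed3 1453848_s_at and -0.44 for Padi6 (2 against 3 arrays). Within the brighter ones it was 0.56 and -0.58 (1 against 1). Both directions were the same in each set. Nlrp5 differed by 0.27 and 0.35, and Tle6 by 0.47 and -0.04.

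**Figure D4:**
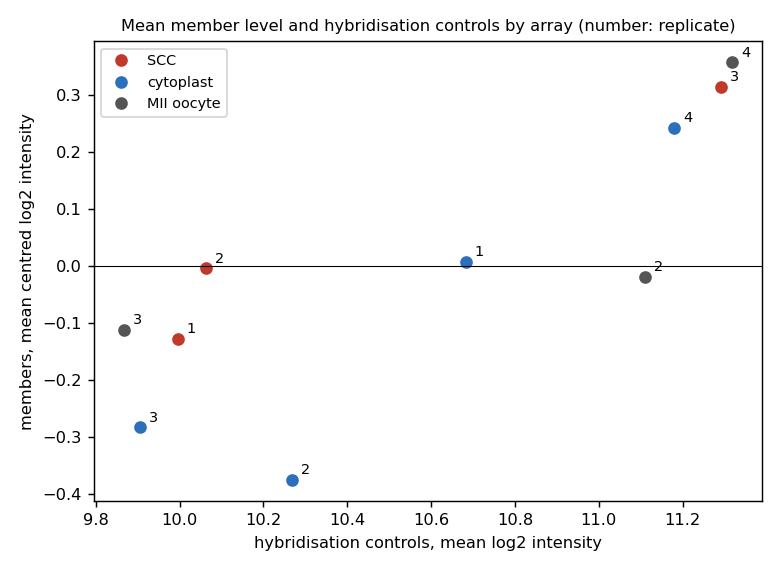
Mean centred log2 intensity of the 6 member genes (vertical axis) against the mean log2 intensity of the hybridisation controls (horizontal axis) for the 10 arrays, coloured by group and numbered by replicate. The 4 arrays with brighter controls lie between -0.02 and 0.36 and the 6 others between -0.38 and 0.01, with each group present in both.

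The wider circle of the complex was described with 4 lists: genes associated with it, paralogs of its members, regulators of its genes, and other maternal-effect genes. Against the cytoplast, 2 of 14 tested associated genes were higher in the SCC and 0 lower. Of 18 paralogs 2 were higher, of 4 regulators 0, and of 28 maternal-effect genes 4 were higher and 1 lower. Over all 12713 genes 8.02% were higher and 0.275% lower by the same limma test. The list medians were 0.22, 0.05, 0.22 and 0.21, against 0.02 for all genes. The lists hold bright and dim genes, and bright probe sets had a median of 0.28 in this comparison. Against the MII oocyte no gene of these lists passed, and 0.0472% of all genes did.

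Uchl1, a deubiquitinating enzyme of oocytes, had an SCC mean of 128 ± 14.2 (SD, n = 3) and a cytoplast mean of 75.9 ± 11.7 (n = 4). It was above background on 2 of 4 cytoplast arrays and was higher in the SCC (log2 0.76, SE 0.17, adjusted p = 0.0224 by limma). Dnmt1, the maintenance DNA methyltransferase, read 2593 ± 748 and 1067 ± 516 and was higher by 1.35 (SE 0.34, adjusted p = 0.0373 by limma). The other Dnmt1 probe sets gave 1 more call and 1 without (log2 0.73, adjusted p = 0.077 by limma).

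Nlrp14 and Nlrp4f, relatives of Nlrp5, did not pass: they differed by 0.45 and 0.05 (adjusted p = 0.203 and 0.852 by limma). The same was found for Uhrf1, the partner of Dnmt1 (0.10, 0.841), and for its dimmer probe set (-0.33, 0.261). The 2 paralogs that rose were Nlrp9a (0.92, adjusted p = 0.0174 by limma) and Nlrp9c (0.56, 0.0274). These are NOD-like receptor genes of the oocyte with close copies, so probes may be shared among them. Of the regulators, Taf4b, a subunit of the TFIID transcription complex, stood at 0.54 (adjusted p = 0.0614 by limma), and Sohlh2 was below background. The other kept Taf4b probe set differed by -0.02 (adjusted p = 0.971 by limma).

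Cdh1, the cell adhesion protein E-cadherin, had the smallest p of the maternal-effect genes. Its SCC mean was 2985 ± 302 (SD, n = 3) and its cytoplast mean 1214 ± 113 (n = 4), a log2 difference of 1.30 (SE 0.14, adjusted p = 0.00234 by limma). Ube2a, a ubiquitin-conjugating enzyme, was higher in the SCC (adjusted p = 0.0214 by limma), with no cytoplast array above background. The fold was 1.33 with the cytoplast arrays set to background. Brwd1 (log2 0.53) and Dppa3 (0.45) were also higher (adjusted p = 0.0259 and 0.0374 by limma). The 4 other Brwd1 probe sets did not pass and differed in sign (log2 -0.36 to 0.62). Zfp57, an imprint-keeping zinc-finger gene, was lower in the SCC (adjusted p = 0.0362 by limma), by 1.11-fold with the SCC arrays set to background. These last 3 were chosen after their values were seen. For Ube2a and Zfp57 the brighter group kept its readings. It was above background on 2 of 3 SCC arrays for Ube2a and 3 of 4 cytoplast arrays for Zfp57, so neither fold is a strict lower bound. After cyclic loess the calls for Uchl1, Dnmt1, Nlrp9c, Brwd1 and Dppa3 were lost (adjusted p = 0.0645, 0.101, 0.366, 0.0769 and 0.458 by limma), and after quantile scaling that for Nlrp9a was too (0.0534).

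Of these 9 called list genes, only Cdh1 passed with each array left out in turn. Without SCC 2 or SCC 3 the other 8 all lost their calls (adjusted p = 0.0832 to 0.188 by limma). Without cytoplast 1 or cytoplast 2, 7 calls were lost each time, without cytoplast 3 those of Dnmt1, Dppa3 and Zfp57, and without cytoplast 4 or SCC 1 that of Zfp57. Taf4b, by its brightest probe set, passed without SCC 1 or MII oocyte 3 (adjusted p = 0.0264 and 0.0282 by limma).

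The genes outside the complex whose log2 values followed the members' mean most closely over the 10 arrays were Stat3 (Pearson r 0.98), Timd4 (0.96), Neurog1 (0.96), Fbxo10 (0.96) and Idua (0.96). Of these Stat3 and Fbxo10 were above background on all 10 arrays, Idua on 9, Timd4 on 3 and Neurog1 on none. After cyclic loess the correlations were 0.90, 0.80, 0.68, 0.79 and 0.72. They were picked as the highest of all genes and describe arrays that share their brightness.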

How the data were processed

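The values are the authors' deposited intensity, linear in scale, for 45101 probe sets. Per the submitters' processing notes they were made with RMA. The sources used here give no version. The deposited arrays did not share a distribution of intensities. Their 95th percentile lay between 526 and 797, and their highest reading between 17504 and 32535. Quantile scaling moved the bright probe sets' median SCC minus cytoplast difference from 0.28 to -0.000164. The main results are therefore not those of arrays brought to equal distributions. Scanner files were not analysed here. Per the labels' protocols, at most 50 ng of RNA per sample was amplified by repeated cDNA synthesis, and each array received 10 µg of biotinylated cRNA. Levels are therefore relative amounts within a sample. They were turned to log2 before testing, since the plan had been made for a log scale.

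The platform annotation gave 1 gene to 34945 probe sets, several to 932 and none to 9160, apart from 64 controls. Of the first, 34741 matched a RefSeq gene ID (GRCm38.p6 table). Probe sets above the array median on at least 3 arrays were kept (23737, including all 9 of the members), and a gene was read from its brightest kept probe set. Limma 3.58.1 in R 4.3.3 fitted 1 mean per group over all 10 arrays, with Benjamini-Hochberg adjustment over the kept probe sets, and was tested on simulated data. Precision is limited by the number of arrays. Since the labels name no animals or oocyte pools behind the biological replicates, p-values measure only the spread between these samples, which may be technical.

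The members and lists were chosen with earlier results of these data known. Named were all members, the 2 genes of each list with the smallest p, Nlrp4f, Nlrp14, Uhrf1 and the 5 genes most correlated with the members. Alternatives were scaling, filter, replicate block, groups fitted, moderation, arrays left out and the mean of a gene's probe sets. The hybridisation control terms and the reference of 3 members were added after seeing the data.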

Additional observations from a re-analysis of the deposited data

Results flagged for a closer look

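In the cytoplast group, 1 array of Zfp57 (intensity 105.1) lay farther from the other 3 (lowest 87.9) than Dixon's limit for 4 arrays, and chance alone marks about 1 in 20 groups.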

How the results depend on the processing

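The number of arrays limits what can be seen, and the cause of a lost call was not tested. For the SCC against the cytoplast, the count of member probe sets higher went from 1 to 0 after cyclic loess and after quantile scaling, and that of lower ones from 0 to 1 after quantile scaling and with only the 2 groups fitted. Associated genes higher went from 2 to 0 under both scalings and 1 with no filter. Paralogs went from 2 to 1 after cyclic loess, 0 after quantile scaling and 1 with the replicate block. Maternal-effect genes higher went from 4 to 2 under both scalings and with trend and robust moderation, and the 1 lower gene to 0 with that moderation or the replicate block. Regulators went from 0 to 1 with the 75th percentile filter, the replicate block, only 2 groups fitted, and the hybridisation control covariate or block. Each time the gene was Taf4b, by its brightest probe set. Against the MII oocyte, associated and maternal-effect genes higher went from 0 to 1 each with the replicate block and both control terms.

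Cyclic loess and quantile scaling turned the SCC minus cytoplast sign of Zbed3 1437830_x_at (-0.19 and -0.19), Ooep (-0.21 and -0.22), Uhrf1 (-0.14 and -0.20) and Nlrp4f (-0.23 and -0.25). They turned SCC minus MII oocyte for Nlrp5 (-0.064 and -0.099), and cytoplast minus MII oocyte for Tle6 (0.10 and 0.11) and Zbed3 1452088_at (0.091 and 0.11). That of Zbed3 1453848_s_at became 0.0054 after cyclic loess. With the control covariate and the control block, Tle6 became 0.073 and 0.18 and Zbed3 1452088_at 0.052 and 0.095 in that comparison. SCC minus MII oocyte of Ooep became 0.0050 with the replicate block and 0.0027 with the control block.

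Leaving out 1 array at a time, member probe sets higher against the cytoplast ranged from 0 to 1, and lower against the MII oocyte from 0 to 1. Associated genes higher ranged from 0 to 2 against the cytoplast and 0 to 1 against the MII oocyte. Paralogs ranged from 0 to 3, regulators from 0 to 1, maternal-effect genes higher from 1 to 5 and lower from 0 to 1, and higher against the MII oocyte from 0 to 1. Signs turned in the ranges of SCC minus cytoplast for Zbed3 1437830_x_at (-0.11 to 0.25), Ooep (-0.051 to 0.17) and Nlrp4f (-0.0034 to 0.12). They also turned for SCC minus MII oocyte of Nlrp5 (-0.24 to 0.25), Zbed3 1452088_at (-0.019 to 0.46) and Ooep (-0.31 to 0.15). For cytoplast minus MII oocyte they turned for Tle6 (-0.26 to 0.19), Zbed3 1452088_at (-0.30 to 0.18), Padi6 (-0.45 to 0.041) and Ooep (-0.38 to 0.080).

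A common replicate number may or may not mean a common source, since the labels name no oocyte pools. Over 8 pairs matched by number the residuals correlated at 0.02 on average. The values ran from -0.30 (cytoplast 2 with MII oocyte 2) to 0.61 (cytoplast 3 with MII oocyte 3). Whether some of these pairs had a common source was not tested. With the replicate block Zbed3 1453848_s_at differed by 0.58 (adjusted p = 0.0443 by limma).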
